A study of Mus musculus with 8 samples.

Results

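The genes described here are 39 genes of the interferon response and of the sensing of viral RNA, chosen by name, of which 37 had a row among the 32285 genes of the matrix. *Mx1* and *Mx2* were not analysed here. The 37 genes were measured by single-cell RNA sequencing in a single pool of cells. The kidney cells described came from 2 male Trim28Δ/Δ embryos (mice 1 and 2) and 2 male Trim28f/f embryos (mice 3 and 4). The labels place these embryos at E17.5 and the study's methods at a later embryonic day. The pool also held 4540 cells with tags that the labels do not name. In Trim28Δ/Δ embryos, a *Six2* transgene that expresses Cre in nephron progenitor cells (NPCs) removed floxed *Trim28* from the progenitors and from the nephron epithelium that they form, and not from ureteric bud, stroma, vessels or blood. Trim28f/f controls carried the floxed alleles without this deletion. The kidneys were dissociated with a cold-active protease, the cells of each mouse were marked with a multiplexing oligonucleotide, and all cells then shared 1 gene expression library.

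Interferons are secreted by cells that detect foreign nucleic acid, and they signal through cell surface receptors, JAK kinases and transcription factors such as IRF9 to switch on a large set of antiviral genes. Double-stranded RNA in the cytosol is bound by RIG-I (*Ddx58*), MDA5 (*Ifih1*) and LGP2 (*Dhx58*), by the kinase PKR (*Eif2ak2*) and by the oligoadenylate synthetases (*Oas* genes), whereas ADAR edits such RNA and thereby keeps it from being sensed. TRIM28 represses endogenous retroviral elements, whose transcripts are one known source of double-stranded RNA within cells, and the genes above are a usual readout of such sensing.

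Antiviral genes are typically switched on through an interferon-stimulated response element in the promoter, whose core was searched here as TTTC NN TTTC (N is any base), which reads GAAA NN GAAA on the other strand. RefSeq promoters (GRCm38.p6, 250 bases before to 50 bases after the start) matched 29 of the 37 genes by symbol, and 14 of these 29 (48.3%) held the core on either strand in at least 1 promoter, against 3.99% of all 27025 genes with a promoter. *Ly6e*, *Oas2*, *Usp18*, *Dhx58*, *Ifi27*, *Zbp1*, *Rtp4* and *Parp14* had no entry. The 250 bases before the start are shown for 6 genes that the results return to, the paralogs *Ifit3* and *Ifit3b* and the 4 matched genes with the highest mean level over classes, in the direction of transcription and with the core in capitals. Overlapping cores run together, as in *Bst2* and *Isg15*.
*Ifit3* (chr19:34583279-34583528, plus strand): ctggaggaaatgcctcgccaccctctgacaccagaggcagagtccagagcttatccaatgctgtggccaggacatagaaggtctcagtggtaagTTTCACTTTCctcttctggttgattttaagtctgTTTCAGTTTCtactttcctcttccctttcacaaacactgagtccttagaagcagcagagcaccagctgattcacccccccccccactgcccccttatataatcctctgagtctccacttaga
*Ifit3b* (chr19:34607707-34607956, plus strand): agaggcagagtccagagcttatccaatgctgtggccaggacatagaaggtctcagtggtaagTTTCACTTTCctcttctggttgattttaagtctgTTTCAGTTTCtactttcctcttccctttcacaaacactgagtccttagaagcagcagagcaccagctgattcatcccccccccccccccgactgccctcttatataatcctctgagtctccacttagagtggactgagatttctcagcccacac
*Ifitm3* (chr7:141010745-141010994, minus strand): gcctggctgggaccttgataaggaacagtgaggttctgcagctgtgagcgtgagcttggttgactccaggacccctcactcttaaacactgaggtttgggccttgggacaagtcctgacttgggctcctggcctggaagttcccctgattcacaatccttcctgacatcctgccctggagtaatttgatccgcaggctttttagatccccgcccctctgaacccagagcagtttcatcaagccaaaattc
*B2m* (chr2:122147437-122147686, plus strand): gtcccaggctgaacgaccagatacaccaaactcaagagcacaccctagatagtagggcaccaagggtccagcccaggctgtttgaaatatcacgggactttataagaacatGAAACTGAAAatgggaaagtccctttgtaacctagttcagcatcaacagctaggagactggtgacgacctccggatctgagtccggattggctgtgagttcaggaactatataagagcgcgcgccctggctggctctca
*Bst2* (chr8:71537473-71537722, minus strand): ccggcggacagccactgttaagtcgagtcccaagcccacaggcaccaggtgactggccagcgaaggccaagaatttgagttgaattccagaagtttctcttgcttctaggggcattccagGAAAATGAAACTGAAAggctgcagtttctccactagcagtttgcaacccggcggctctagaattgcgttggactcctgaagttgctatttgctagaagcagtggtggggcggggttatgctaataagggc
*Isg15* (chr4:156200819-156201068, minus strand): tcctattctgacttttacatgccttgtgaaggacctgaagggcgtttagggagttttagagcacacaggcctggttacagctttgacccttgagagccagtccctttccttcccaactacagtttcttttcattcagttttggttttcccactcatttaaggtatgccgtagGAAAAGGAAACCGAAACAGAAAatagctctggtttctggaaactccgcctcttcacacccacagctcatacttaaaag
The 2 cores of *Ifit3* and *Ifit3b* lie in the same surrounding sequence, and the cores counted for *Ifitm3* lie at or after its start, outside the bases shown. A match of letters is a description of these windows and says nothing of binding.

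Several of the genes are neighbours. *Ifit2*, *Ifit3*, *Ifit3b* and *Ifit1* lie in that order within chr19:34550694-34650009 (GENCODE M21, GRCm38), *Psmb9*, *Tap1* and *Psmb8* within chr17:34181987-34201454, *Rsad2* and *Cmpk2* within chr12:26442746-26479837, *Oas2* and *Oas3* within chr5:120730333-120777661, and *Oasl2* and *Oasl1* within chr5:114896936-114937915. The longest coding transcripts of *Ifit3* and *Ifit3b* were 98.0% identical over the aligned bases, and 14.9% of the 50-base words in the last 500 bases of *Ifit3*, the end that this assay reads, also occurred in *Ifit3b*, so the split of reads between these paralogs is uncertain.

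After filtering, 7348 cells were assigned to mouse 1 (1320 cells), mouse 2 (1451), mouse 3 (2724) and mouse 4 (1853), with a median of 16519 to 17411 UMIs per cell. The cells fell into 23 clusters, of which 16 were named from markers, and the 37 genes were left out of the clustering so that they could not define it. Counts of UMIs were summed per mouse in 17 classes with at least 10 cells in every mouse. *Trim28* was lower in Trim28Δ/Δ in the 10 classes of nephron epithelium (log2 change of -2.785 to -1.504, called in 9), and its log2 change was -0.25 to 0.03 in the 7 others, with none called. Mouse 3 stood apart, since it supplied 179 of the 180 cells of cluster 13 and only 3 collecting duct-like cells. Values without it are given beside many, not all, of the results that rest on it. Free RNA in the suspension, profiled from barcodes with 10 to 100 UMIs, took an estimated 18.2% to 25.1% of the UMIs of endothelial-like cells and 19.6% to 25.6% of those of immune-like cells, depending on the mouse.

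Among the tested classes, the interferon genes were highest in immune-like and endothelial-like cells (described with no test, as classes come from the same cells). Levels are given as UMIs of a gene over all UMIs of the class and mouse, scaled to CPM, which count molecules and need no correction for length in this assay. Of the 37 genes, and among the 17 tested classes alone, 29 had their highest mean level in immune-like cells (173 cells) and 7 in endothelial-like cells (486 cells), and 1, *Ifi27*, in mural-like cells. For 13 of the 29, every mouse was higher in immune-like cells than any mouse in the class with the next highest mean. These numbers of genes by class (36 of 37 in the immune-like and endothelial-like classes) were the same after subtraction of free RNA and with the genes kept in the clustering. They leave out the 6 classes with fewer than 10 cells in at least 1 mouse. In these, 7 genes (*Ddx58*, *Ifit1*, *Ifit3*, *Ifit3b*, *Irf9*, *Ly6e* and *Xaf1*) had a higher mean in at least 1 class than in any tested one, some of it from few cells. Collecting duct-like cells (324 cells) and cluster 13 (180 cells), both left out, had more cells than the immune-like class. *Ifit3* had a mean of 227 CPM in cluster 18, described further on, against 96.8 CPM in immune-like cells, and *Ifit3b* 92.7 against 26.1 CPM.

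**Figure D1:**
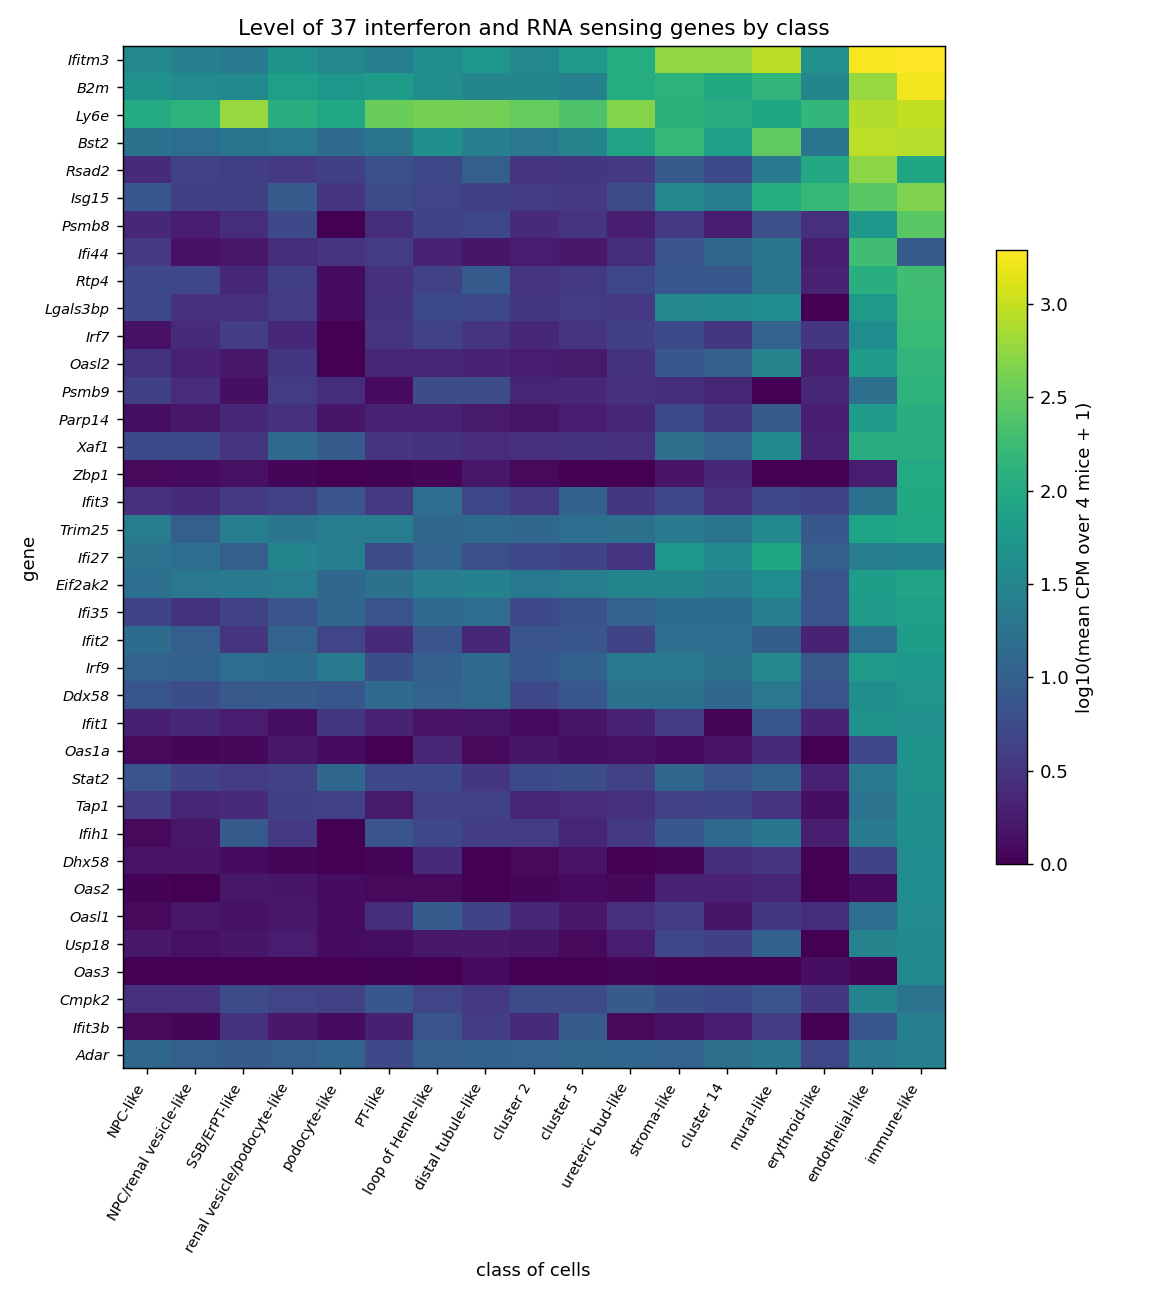
Mean level of each of the 37 genes (rows, highest first) in the 17 classes (columns), as log10 of the mean CPM over 4 mice plus 1. The summed mean of the genes is 8424 CPM in the immune-like and 6189 CPM in the endothelial-like column, and at most 812 CPM in any column of nephron epithelium.

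Among the sensors, *Zbp1*, which binds left-handed nucleic acid, was found mainly in immune-like cells, with 111, 138, 41.0 and 115 CPM in mice 1 to 4. The next highest class mean of *Zbp1* was 1.41 CPM. LGP2 (*Dhx58*) had a mean of 39.01 ± 11.3 CPM (SD, n = 4 mice) in immune-like cells and 3.73 ± 1.27 in endothelial-like cells. RIG-I (*Ddx58*) was less restricted, at 50.7 ± 14.2 CPM in immune-like and 40.5 ± 11.1 CPM in endothelial-like cells, and the ranges of the mice overlapped. The oligoadenylate synthetases, which make a second messenger that activates RNase L, were also highest in immune-like cells, with means of 47.2 ± 15.1 CPM for *Oas1a*, 38.4 ± 10.0 for *Oas2* and 35.2 ± 21.4 for *Oas3*. Their next highest class means were 3.97, 1.19 and 0.38 CPM.

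Among the effectors, viperin (*Rsad2*), which makes a chain-terminating nucleotide that blocks viral polymerases, was highest in endothelial-like cells. Its levels in endothelial-like cells were 583, 719, 327 and 437 CPM in mice 1 to 4. Erythroid-like cells, the class with the next highest mean of *Rsad2*, had 95.5 ± 37.1 CPM, and immune-like cells had 77.5, 150, 57.1 and 66.7 CPM. Neither class overlapped with endothelial-like cells. *Ifi44*, whose product limits viral replication, showed the same preference, with a mean of 189 ± 68.0 CPM in endothelial-like cells and 17.4 ± 12.95 CPM in mural-like cells, the next highest class. *Isg15*, a ubiquitin-like protein that is attached to other proteins during the response, reached 434, 778, 153 and 443 CPM in immune-like cells and was also found in erythroid-like cells at 220, 178, 53.5 and 159 CPM. By contrast, PT-like cells (proximal tubule) held 2.62, 9.08, 2.49 and 4.27 CPM of *Isg15*, below the 36.1 CPM of the free RNA. Of the 66 UMIs of mouse 2 there, 27 came from 1 cell.

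Antigen presentation was highest in immune-like cells as well. *B2m*, the light chain of MHC class I, had a mean of 1693 ± 161 CPM there and 605 ± 60.8 in endothelial-like cells, and *Psmb8*, a subunit of the immunoproteasome, 274 ± 49.3 and 55.8 ± 18.9. The membrane proteins *Ifitm3*, which blocks entry of viruses, and *Bst2*, which tethers budding virus, were about as high in endothelial-like as in immune-like cells, at 1777 ± 462 and 1936 ± 558 CPM for *Ifitm3* and at 912 ± 250 and 830 ± 278 CPM for *Bst2*. The spread between mice exceeded these differences.

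To ask whether loss of *Trim28* in progenitors was accompanied by an interferon response in the same cells, the sums of 2 and 2 mice were tested with edgeR's quasi-likelihood test in each class, with Benjamini-Hochberg adjustment over all genes of the class. In NPC-like cells (15, 31, 85 and 219 cells in mice 1 to 4), 9 of the 37 genes passed the filter on low counts and none was called, against 1.49% of all 8074 genes tested. At an unadjusted p below 0.05, 1 of the 9 was higher, *Ly6e*, against 3.11% of all genes. DESeq2 called 0, against 0.133% of all genes. The median log2 change of the 9 was -0.00, against -0.01 over all genes. RIG-I, MDA5 and *Isg15* itself did not pass the filter in NPC-like cells, where the *Isg15* sums were 4, 1, 6 and 8 UMIs. With no filter, 36 of the 37 genes were tested in NPC-like cells, edgeR called none (1.29% of all genes), and 2 were higher at an unadjusted p below 0.05 (1.96% of all genes), and DESeq2 also called none of the 36. In simulated counts for NPC-like cells the fit recovered 20.7% of 2-fold and 81.2% of 4-fold changes.

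In PT-like cells (266, 268, 151 and 172 cells), the class with the most UMIs per cell among those named, 23 of the 37 genes passed the filter and none was called, against 0.637% of all 12237 genes. An unadjusted p below 0.05 was found for 2, *Ly6e* and *Trim25*, the ubiquitin ligase that activates RIG-I, both higher in Trim28Δ/Δ (5.43% of all genes). DESeq2 called 1, *Ly6e* (0.459% of all genes). *Trim25* was at 28.5 and 31.3 CPM (after TMM scaling, as in all values given with tests) in Trim28Δ/Δ and at 14.9 and 21.7 CPM in Trim28f/f mice (log2 change 0.69, SE 0.20, edgeR adjusted p = 0.24, and 0.46 without mouse 3). Both Trim28Δ/Δ mice lay above both controls for 5 of the 23 genes, a share of the background size, since this held for 20.1% of all genes. The median log2 change was 0.03, and 12 of the 23 genes were above 0, against 49.9% of all genes. The median moved to 0.34 after subtraction of free RNA, with 9 of 13 genes above 0 (48.9% of all genes), and to -0.09 with the genes kept in the clustering, with 8 of 26 above 0 (49.0% of all genes). With the genes kept, the PT-like class also took in 139 cells of cluster 18, described further on, and 13 SSB/ErPT-like cells. In PT-like cells the 9 immune markers summed to 44.8 and 45.4 CPM in Trim28Δ/Δ and to 19.4 and 29.9 CPM in Trim28f/f mice, all 9 detected in every mouse. The 6 erythroid markers had the opposite order, at 1790 and 1573 against 6028 and 2929 CPM, with up to 1 at 0 in a mouse. The part of other cells' RNA in the differences of PT-like cells was not tested. In simulated counts for PT-like cells the fit recovered 67.3% of 2-fold changes. The changed genes of these simulations were drawn from all genes tested, whatever their level. The 23 genes tested here had medians of 4.96, 6.31, 5.05 and 5.23 CPM in mice 1 to 4, and recovery at such levels was not measured.

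Whether any of the genes changed differently in PT-like cells than in stroma-like cells, which do not descend from *Six2*-expressing progenitors, was tested as an interaction with the mouse as block. Of 28 genes tested, edgeR called none, against 0.245% of all 12654 genes, with 3 at an unadjusted p below 0.05 (6.95% of all genes). DESeq2 called none, against 0.099% of all genes. The same test between PT-like and endothelial-like cells, chosen after seeing the data, called none of 34 genes (0.103% of 12621 genes), with 8 at an unadjusted p below 0.05 (6.63% of all genes), of which 6 had the larger log2 change in endothelial-like cells. DESeq2 called none there either (0.0344% of all genes).

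Across the 17 classes, 261 pairs of a gene and a class were tested and 3 were called, all of them *Ly6e*, against 0.404% of all 150272 pairs. Its product is a lipid-anchored surface protein that interferon induces and that affects the entry of several viruses, and the gene (ENSMUSG00000022587, chr15:74955051-74959905, plus strand, GRCm38) was measured in all 17 classes. In SSB/ErPT-like cells, which carry markers of the S-shaped body and the early proximal tubule, *Ly6e* was at 907 and 870 CPM in Trim28Δ/Δ and at 319 and 331 CPM in Trim28f/f mice. The groups were far apart, with a log2 change of 1.45 (SE 0.12, edgeR adjusted p = 0.00065), in a class where 0.435% of all 11270 genes were called. *Ly6e* was the only one of 14 genes called there.

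In NPC/renal vesicle-like cells *Ly6e* was at 164 and 222 CPM in Trim28Δ/Δ and at 71.3 and 67.7 CPM in Trim28f/f mice (log2 change 1.48, SE 0.19, edgeR adjusted p = 0.0026, 1 of 11 genes called against 1.69% of all 10384 genes). In the cycling cells of cluster 2, led by *Ube2c* and *Cenpf*, it was at 487 and 404 against 209 and 193 CPM (log2 change 1.14, SE 0.13, adjusted p = 0.011, 1 of 18 genes called against 0.179% of all 11702 genes). Neither pair of groups overlapped. Leaving out mouse 1 or mouse 2 kept the direction and ended the call of *Ly6e* in NPC/renal vesicle-like cells (edgeR adjusted p = 0.26 and 0.37) and in cluster 2 (adjusted p = 0.30 and 0.086), whereas the call in SSB/ErPT-like cells passed with each mouse left out.

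Elsewhere in the nephron lineage, the 2 Trim28Δ/Δ mice also lay above the controls for *Ly6e* without passing the threshold. In PT-like cells the levels were 389 and 518 CPM against 225 and 265 CPM (log2 change 0.89, SE 0.16, edgeR adjusted p = 0.056), and this pair was called by DESeq2 (adjusted p = 0.00011) and without mouse 1, 3 or 4. The immune markers of PT-like cells, given above, were higher in the same mice. In renal vesicle/podocyte-like cells they were 162 and 154 against 82.0 and 73.1 CPM (log2 change 1.03, adjusted p = 0.11), and in the loop of Henle-like class 510 and 476 CPM in Trim28Δ/Δ and 303 and 352 CPM in controls (log2 change 0.59, adjusted p = 0.41). Not every lineage class showed this order. In podocyte-like cells the levels overlapped at 83.1 and 101 against 108 and 97.1 CPM, and in distal tubule-like cells the Trim28Δ/Δ mice were at 370 and 384 and the controls at 476 and 401 CPM.

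*Bst2* had the opposite direction in cluster 5, an unnamed class led by *Spon1* and *Fgf8*. It was at 20.3 and 15.9 CPM in Trim28Δ/Δ and at 47.5 and 30.8 CPM in Trim28f/f mice (log2 change -1.15, SE 0.29, edgeR unadjusted p = 0.0016 and adjusted p = 0.14), without overlap. It was called lower with no filter (adjusted p = 0.0060), after subtraction of free RNA (adjusted p = 0.011) and without mouse 4 (adjusted p = 2.8e-06), and not by DESeq2 or without mouse 3 (log2 change -0.79, adjusted p = 0.19).

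*Ly6e* was abundant in the free RNA (356 CPM), which was common to all cells of the pool, including those with tags the labels do not name. After subtraction of free RNA, *Ly6e* stayed called in SSB/ErPT-like (log2 change 1.65), NPC/renal vesicle-like (2.73) and cluster 2 cells (1.45), and its level in NPC/renal vesicle-like cells became 139.9, 211, 20.3 and 27.5 CPM in mice 1 to 4. In SSB/ErPT-like cells, the sums of some markers of other cell types also differed between the genotypes. The 6 erythroid markers summed to 4701 and 3997 CPM in Trim28Δ/Δ and to 1575 and 887 CPM in Trim28f/f mice, higher in Trim28Δ/Δ as *Ly6e* was, and up to 1 of them was at 0 in a mouse. The 9 proximal tubule markers had the opposite order, at 1035 and 1267 against 1922 and 2184 CPM. The 9 immune markers summed to 35.4, 26.1, 30.1 and 27.4 CPM and the 9 endothelial markers to 31.8, 45.0, 46.3 and 36.4 CPM in mice 1 to 4, with overlapping groups and with 2 endothelial markers at 0 in mouse 1. In NPC/renal vesicle-like cells the erythroid sums overlapped, at 2905 and 776 against 1092 and 1695 CPM, and so they did in cluster 2. The part of other cells' RNA in the *Ly6e* result was not tested.

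Outside the lineage, ureteric bud-like cells had 452 and 502 CPM of *Ly6e* in Trim28Δ/Δ and 511 and 483 CPM in Trim28f/f mice (log2 change -0.06, SE 0.15), with overlapping groups. The change in SSB/ErPT-like cells exceeded that in ureteric bud-like cells by 1.54 on the log2 scale (SE 0.18, edgeR adjusted p = 3.3e-06 for the interaction), the only 1 of 14 genes called in that comparison, in which 0.253% of 11458 genes were called and which was chosen after seeing the data. In other classes outside the nephron lineage, both Trim28Δ/Δ mice also lay above both controls for *Ly6e*, without passing the adjusted threshold. Mural-like cells were at 123 and 121 against 57.4 and 84.3 CPM (log2 change 0.84, SE 0.32, edgeR unadjusted p = 0.024 and adjusted p = 0.99, and 0.51 without mouse 3). The 6 erythroid markers in mural-like cells had the same order, at 14967 and 13716 against 3250 and 6286 CPM, with 1 or 2 at 0 in each mouse, and their part in this difference was not tested. Cluster 14, led by *Pdgfrb* and *Ebf1*, was at 103 and 188 against 79.4 and 89.8 CPM (log2 change 0.81, SE 0.29, unadjusted p = 0.016 and adjusted p = 0.57, and 0.27 without mouse 2). Erythroid-like cells were at 223 and 163 against 145 and 69.3 CPM (log2 change 0.81, SE 0.35, unadjusted p = 0.049 and adjusted p = 0.75, and 0.34 without mouse 4). The order of the mice was therefore seen outside the nephron lineage too. Stroma-like cells were at 153 and 136 against 120.3 and 112 CPM (log2 change 0.31, SE 0.21, adjusted p = 0.9999), endothelial-like cells had a log2 change of 0.40 (0.14 without mouse 3), and immune-like cells, whose groups overlapped, had 0.38 (0.08 without mouse 3). The planned interaction between PT-like and stroma-like cells for *Ly6e* was 0.57 (SE 0.22, adjusted p = 0.59).

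**Figure D2:**
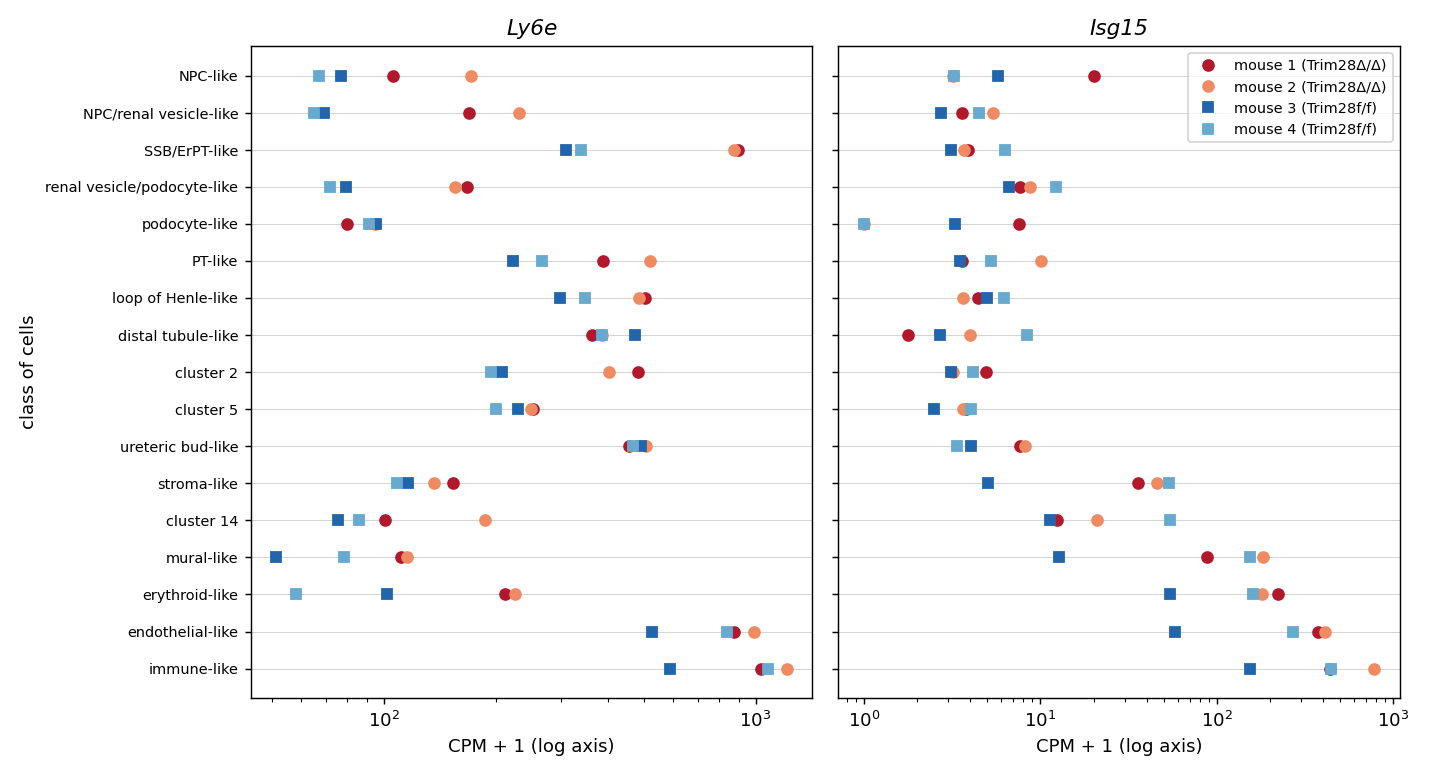
Levels of *Ly6e* (left) and *Isg15* (right) in each of the 17 classes (rows), as CPM plus 1 on a log axis, with circles for the 2 Trim28Δ/Δ mice and squares for the 2 Trim28f/f mice. For *Ly6e*, circles lie to the right of squares in most rows of nephron epithelium and also in the stroma-like, cluster 14, mural-like, erythroid-like and endothelial-like rows, but not in the ureteric bud-like, immune-like, distal tubule-like and podocyte-like rows, whereas *Isg15* is at most 19.1 CPM in nephron epithelium and is lowest in mouse 3 in the stroma-like, mural-like, endothelial-like, immune-like and erythroid-like rows.

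In endothelial-like cells (133, 98, 157 and 98 cells), which keep *Trim28*, 31 of 33 genes tested had a log2 change above 0 in Trim28Δ/Δ against Trim28f/f mice, but none passed the adjusted threshold. Of the 33 genes that passed the filter, edgeR called 0 (0.0% of all 10641 genes) and DESeq2 called 0 (0.0333% of all genes). At an unadjusted p below 0.05, 15 were higher, against 1.94% of all genes, and none was lower. Over all 10641 genes, 571 had such a p, 206 of them higher. The 15 became 6 by tag share (2.22% of all genes) and 23 with no filter (2.21%), and this count also moved with a mouse left out. The share above 0 over all genes was 48.3%, and the genes had a median of 0.66 against -0.01 over all genes. With no filter on low counts, all 37 genes were tested, 35 were above 0, the median was 0.68 and 9 were called, when 1.2% of all genes were. Both Trim28Δ/Δ mice were above both Trim28f/f mice for 22 of the 33 genes, against 16.4% of all genes.

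The 2 controls, however, also lay far apart from each other. *Isg15* was at 374 and 397 CPM in Trim28Δ/Δ mice, at 60.1 CPM in mouse 3 and at 271 CPM in mouse 4 (log2 change 1.25, SE 0.52, edgeR adjusted p = 0.91). *Ifit1*, whose product binds viral RNA that lacks a methylated cap, was at 68.5 and 74.7 CPM against 7.65 and 40.1 CPM (log2 change 1.72, SE 0.54, adjusted p = 0.84). The groups do not overlap for either gene, but mouse 4 lies nearer to the Trim28Δ/Δ mice than to mouse 3, and without mouse 3 the log2 change of *Isg15* was 0.51.

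*Rsad2* had the narrower spread among controls, with 587 and 701 CPM against 345 and 438 CPM (log2 change 0.72, SE 0.18, edgeR adjusted p = 0.80). Its neighbour *Cmpk2*, a kinase that supplies the nucleotide which viperin converts, was at 41.6 and 42.9 against 10.6 and 21.7 CPM (log2 change 1.47, SE 0.32, adjusted p = 0.80). Both genes had unadjusted p values below 0.05, 0.0028 for *Rsad2* and 0.0015 for *Cmpk2*. The log2 change of *Cmpk2* was 0.96 without mouse 3.

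Among the sensors of endothelial-like cells, RIG-I (*Ddx58*) was at 46.3 and 51.3 CPM against 28.8 and 36.1 CPM (log2 change 0.60, SE 0.22). MDA5 (*Ifih1*) was at 25.5 and 30.1 against 5.83 and 21.03 CPM (log2 change 1.18, SE 0.48). The transcription factor *Irf7*, which amplifies interferon production, was at 52.4 and 44.0 against 19.3 and 39.4 CPM (log2 change 0.78, SE 0.32). All these values keep the 2 genotypes apart, again with mouse 3 as the low sample. *Usp18*, the protease that removes ISG15 and dampens the receptor, followed with 45.8 and 32.9 against 9.47 and 25.6 CPM. Without mouse 3 the log2 changes were 0.43 for RIG-I, 0.40 for MDA5, 0.30 for *Irf7* and 0.63 for *Usp18*.

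Other genes had smaller differences. *B2m* was at 630 and 626 against 542 and 639 CPM (log2 change 0.09, SE 0.15), *Adar* at 22.2 and 22.9 against 18.2 and 26.9 CPM, and *Irf9* at 74.6 and 61.3 against 47.7 and 68.3 CPM, with overlapping groups in each case. *Trim25* and *Ifi27* were the 2 genes below 0, and *Trim25* was highest in mouse 3 (70.4, 74.7, 118 and 57.2 CPM in mice 1 to 4), with a log2 change that turned from -0.30 to 0.34 without it.

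Of the 33 genes, 29 were lowest in mouse 3, against 30.6% of all genes tested in this class. Without mouse 3 the median log2 change of the genes was 0.30, with 28 of 33 above 0 and 2 called (0.907% of all genes), *Ifit1* (0.83, adjusted p = 0.023) and *Rsad2* (0.56, adjusted p = 0.027). Without mouse 4, it was 1.02 and 25 of 34 were called, 24 of them higher, in a fit that called 11.1% of all genes. The 9 immune markers summed to 25.3 and 44.6 CPM in Trim28Δ/Δ and to 89.5 and 65.6 CPM in Trim28f/f endothelial-like cells, the opposite order to the interferon genes, with all 9 detected in every mouse. The 6 erythroid markers were in that order too, at 3470 and 4511 against 8098 and 7503 CPM, with 1 at 0 in mouse 2. The part that immune RNA, erythroid RNA or the differing cell makeup of mouse 3 has in these results was not tested. Fewer molecules per cell and fewer expressing cells cannot be told apart in such sums.

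**Figure D3:**
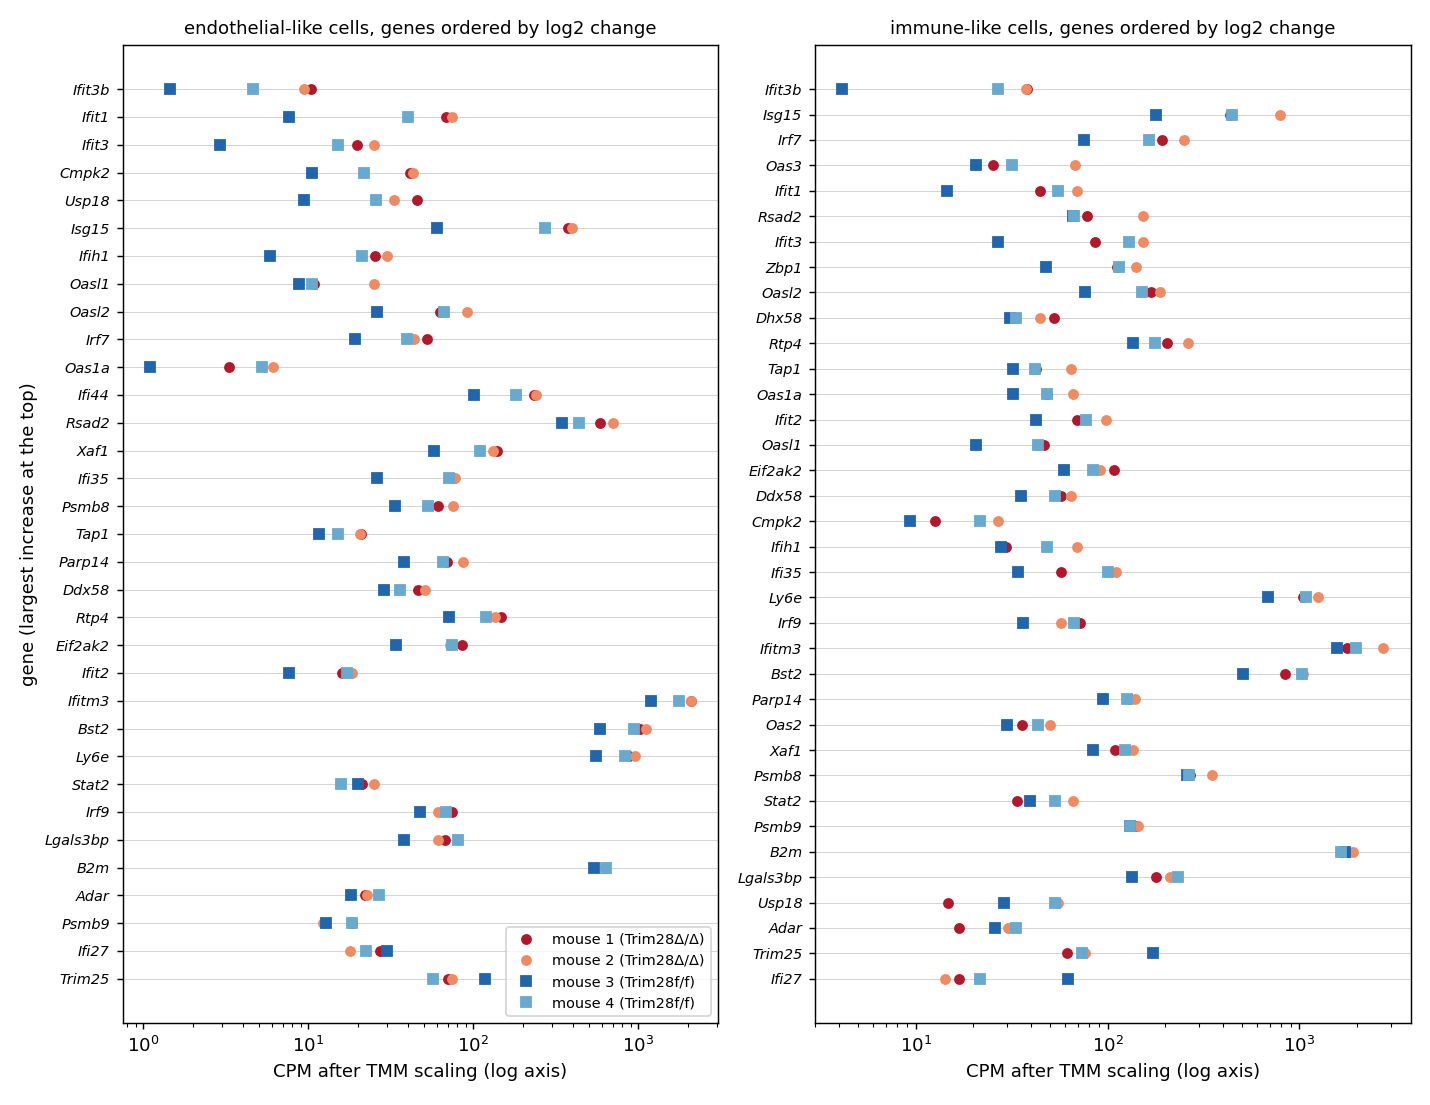
Level of each tested gene in endothelial-like cells (left, 33 genes) and immune-like cells (right, 36 genes) of each mouse, as CPM after TMM scaling on a log axis, ordered by log2 change, with circles for Trim28Δ/Δ and squares for Trim28f/f mice. The dark squares of mouse 3 are the lowest point for 29 genes in each panel.

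In immune-like cells (27, 37, 73 and 36 cells), mouse 3 was again the low sample. No test compared their differences with those of endothelial-like cells. Of 36 genes tested, edgeR and DESeq2 each called 0 (edgeR called 0.0284% of all 7033 genes and DESeq2 0.0367% of all genes). At an unadjusted p below 0.05, 5 were higher, against 1.71% of all genes, and 1, *Ifi27*, was lower. Over all 7033 genes, 314 had such a p, 120 of them higher. The 5 became 0 without mouse 2 (1.02% of all genes), 2 without mouse 3 (2.64%), 21 without mouse 4 (6.02%), 1 without Scrublet doublets (2.03%) and 1 after subtraction of free RNA (1.1%). The log2 change was above 0 for 32 of the 36 (49.6% of all genes), with a median of 0.44 against -0.00, and both Trim28Δ/Δ mice were above both controls for 14 genes, against 16.0% of all genes. With no filter, 33 of 37 genes were above 0, with a median of 0.39 and 1 called (0.612% of all genes).

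*Irf7* was at 192 and 252 CPM in Trim28Δ/Δ and at 75.6 and 164 CPM in Trim28f/f immune-like cells (log2 change 0.92, SE 0.35, edgeR adjusted p = 0.9997). *Isg15* was at 437 and 796 against 178 and 444 CPM (log2 change 0.999, SE 0.41, adjusted p = 0.9997), with mouse 1 just below mouse 4. *Ifit3* overlapped, at 86.5 and 153 against 26.9 and 129 CPM, and so did the sensor *Zbp1*, at 112 and 141 against 47.6 and 115 CPM. Without mouse 3 the log2 changes in immune-like cells were 0.44 for *Irf7*, 0.47 for *Isg15*, -0.09 for *Ifit3* and 0.13 for *Zbp1*. Mouse 3 was again the lowest for 29 genes, against 28.4% of all genes tested. Without it the median log2 change of the genes was 0.11, with 23 of 36 above 0 (51.4% of all genes) and none called (0.608% of all genes), and without mouse 4 it was 0.79, with 12 called in a fit that called 4.24% of all genes. Without mouse 2 the median log2 change of the genes was 0.20, with 24 of 36 above 0 (47.7% of all genes).

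In stromal and mural cells, which also keep *Trim28*, mouse 3 was the low sample for *Isg15* and mouse 4 was as high as the Trim28Δ/Δ mice. *Isg15* was at 34.6 and 44.9 CPM in Trim28Δ/Δ stroma-like cells and at 4.23 and 55.2 CPM in controls, the highest and the lowest value both being controls. In mural-like cells it was at 96.7 and 192 against 13.3 and 165 CPM. The log2 change of *Isg15* without mouse 3 was -0.46 in stroma-like and -0.25 in mural-like cells. edgeR called none of 16 genes in stroma-like cells (0.0% of all 8973 genes) and none of 12 in mural-like cells (0.0211% of all 4748 genes), with 1 and 2 higher at an unadjusted p below 0.05 (1.75% and 2.32% of all genes). DESeq2 called none in either (0.0% and 0.0128% of all genes). Without mouse 3 the median log2 change of the genes turned from 0.26 to -0.16 in stroma-like and from 0.74 to -0.15 in mural-like cells. Without mouse 4 the median was 0.57 in stroma-like and 1.13 in mural-like cells. *Ifitm3* had a log2 change of -0.50 in stroma-like cells without mouse 3.

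**Figure D4:**
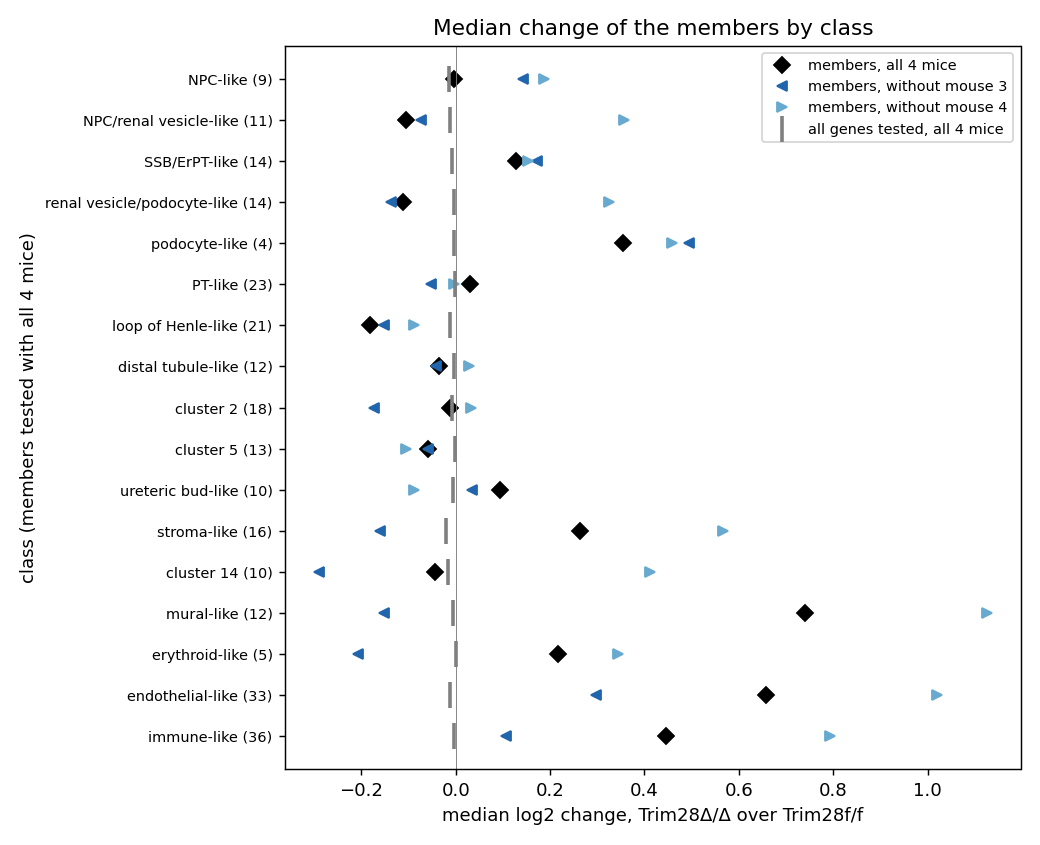
Median log2 change of the genes that passed the filter in each of 17 classes (rows, with the number of genes), for all 4 mice (diamonds) and without mouse 3 or mouse 4 (triangles), beside the median of all genes tested (grey bars). The medians of endothelial-like and immune-like cells stay above 0 without mouse 3, at 0.30 and 0.11, whereas those of stroma-like and mural-like cells turn to -0.16 and -0.15.

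*Ifit3* was also found in cells with little *Ifit1*. Cluster 18, an unnamed class of 54, 63, 3 and 21 cells led by *Cryab*, *Corin*, *Cp* and *Slc14a2*, was not tested because mouse 3 had too few cells. *Ifit3* was itself among its 10 leading genes, although left out of the clustering. The class was not a cluster of its own with the genes kept in, when 139 of its 141 cells joined 244 PT-like and 13 SSB/ErPT-like cells and 605 of the 857 PT-like cells stayed together. It held 62.7 and 88.5 CPM of *Ifit3* in Trim28Δ/Δ and 309 and 450 CPM in Trim28f/f mice, from 66, 113, 10 and 246 UMIs. The groups did not overlap, with the controls higher, but 126 of the 246 UMIs of mouse 4 came from 1 cell. A UMI of *Ifit3* was found in 24 of 54, 22 of 63, 3 of 3 and 15 of 21 cells, against 1 of 26, 2 of 13, 4 of 61 and 1 of 33 podocyte-like cells, at median depths of 10532 to 19283 and 9260 to 10749 UMIs per cell.

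*Ifit3b*, the paralog of *Ifit3*, followed in cluster 18 with 28.5, 36.0, 123 and 183 CPM, and *Ifit2* with 12.4, 11.8, 61.7 and 67.7 CPM. *Ifit1*, which lies beside them, was at 0, 0.78, 0 and 0 CPM there from 1 UMI in 141 cells, and *Isg15* at 3.80, 3.13, 0 and 0 CPM. The core was found in the promoters of *Ifit1*, *Ifit3* and *Ifit3b*, and not in those of *Ifit2*. In loop of Henle-like cells *Ifit3* was at 4.37 and 3.02 CPM in Trim28Δ/Δ and at 42.8 and 7.06 CPM in Trim28f/f mice (log2 change -2.82, SE 0.80, edgeR adjusted p = 0.46). It was -0.92 without mouse 3 (SE 0.70, edgeR adjusted p = 0.81). The value of mouse 3 came from 189 UMIs in 45 of 203 cells, and *Ifit1* had 1 UMI in the same cells. In cluster 13, unnamed and with collecting duct markers scoring highest, mouse 3 had 119 UMIs of *Ifit1* in 43 of 179 cells, with 43 UMIs of *Ifit3* and 18 of *Isg15*. Free RNA took an estimated 14.2% of all UMIs of these cells. It held 4.18 CPM of *Ifit1*, 10.5 of *Ifit3* and 36.1 of *Isg15*, and its part in these counts was not tested.

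**Figure D5:**
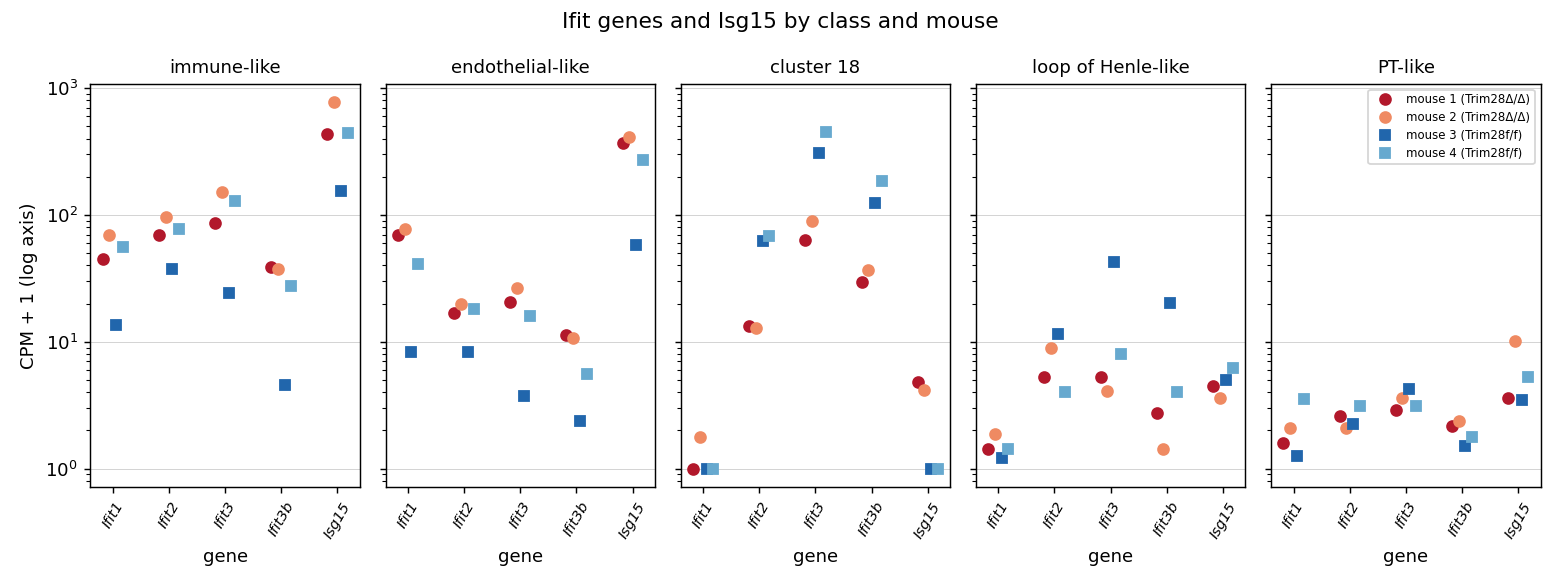
Levels of the 4 *Ifit* genes and *Isg15* in 5 classes, as CPM plus 1 on a log axis, with circles for Trim28Δ/Δ and squares for Trim28f/f mice. Immune-like and endothelial-like cells hold all 5 genes, whereas cluster 18 holds *Ifit2*, *Ifit3* and *Ifit3b* with *Ifit1* and *Isg15* below 4 CPM, and PT-like cells hold little of any.

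The interferons themselves were not detected beyond traces. Of 21 ligand genes, 18 had no UMI in the cells of the 4 mice, and *Ifne*, *Ifnk* and *Ifnz* had 1, 9 and 12 UMIs, so that no ligand was tested in any class. A count of 0 limits only the UMIs found in these cells. The receptors were widely detected, with 3854 UMIs of *Ifnar1*, 5039 of *Ifnar2* and 4903 of *Ifngr1*, and 179 of *Ifnlr1*, the receptor chain of the lambda interferons. *Ifnar2* was at 205, 223, 218 and 182 CPM in immune-like cells and at 90.0, 88.1, 121 and 72.8 CPM in endothelial-like cells, with mouse 3 not the lowest in either. Over the 9 genes for receptors and kinases, none of 111 pairs of a gene and a class was called by edgeR, when 0.404% of the pairs of all genes were.

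Of the 123 further pathway genes with a row, in 8 lists of ligands, receptors, sensors, adaptors, transcription factors, further interferon-stimulated genes, antigen presentation and negative regulators, 742 pairs of a gene and a class were tested and 2 were called, when 0.404% of the pairs of all genes were. In endothelial-like cells 81 of the 123 were tested, 64 were above 0 (48.3% of all genes), and 18 were higher (1.94% of all genes) and 0 lower at an unadjusted p below 0.05. Values without mouse 3 are not given for these lists. In PT-like cells 22 of 59 were above 0 (49.9% of all genes), with 1 higher (5.43% of all genes) and 2 lower at that p. Over all 12237 genes there, 1279 had such a p, 665 of them higher. The counts for the lists varied among classes of the nephron lineage, and no test of the lists compared the classes. In NPC-like cells 5 of 25 were above 0 (48.6% of all genes), with 0 higher (3.11% of all genes) and 2 lower. Over all 8074 genes there, 609 had such a p, 251 of them higher. In renal vesicle/podocyte-like cells 36 of 52 were above 0 (49.7% of all genes), with 7 higher (3.37% of all genes) and 1 lower, and in SSB/ErPT-like cells 27 of 50 (49.0% of all genes), with 3 higher (4.09% of all genes) and 1 lower. Over all genes, 589 of 10174 in renal vesicle/podocyte-like and 898 of 11270 in SSB/ErPT-like cells had such a p, 343 and 461 of them higher. Of the list of further interferon-stimulated genes, 16 were tested in each of the latter classes and 13 were above 0 in each. Of these, 4 were higher and 1 lower in renal vesicle/podocyte-like cells, and 3 higher and 1 lower in SSB/ErPT-like cells. Of the 37 genes themselves, 6 of 14 tested were above 0 in renal vesicle/podocyte-like cells (49.7% of all genes), with a median of -0.11 and 1 higher (3.37%). In SSB/ErPT-like cells 10 of 14 were above 0 (49.0%), with 1 higher (4.09%).

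*Slfn2*, a Schlafen gene that interferon induces in leukocytes, was called in SSB/ErPT-like cells, with 32 and 36 UMIs (23.1 and 16.2 CPM before TMM scaling) in Trim28Δ/Δ and 12 and 3 UMIs (1.58 and 0.93 CPM) in Trim28f/f mice (log2 change 3.78, SE 0.43, edgeR adjusted p = 0.0049). Both control levels lay below the cut of the filter on low counts, which the gene passed through the Trim28Δ/Δ sums alone. The call is therefore only a description of these UMIs. *Slfn2* was found mainly in immune-like cells, at 350, 399, 224 and 323 CPM. In SSB/ErPT-like cells 0.435% of all 11270 genes were called. *Ifitm1*, a membrane protein of the family of *Ifitm3*, was called lower in NPC-like cells, where 1.49% of all 8074 genes were called. It had 3 and 3 UMIs in Trim28Δ/Δ and 82 and 118 UMIs in Trim28f/f mice (log2 change -2.50, SE 0.59, edgeR adjusted p = 0.038). Before TMM scaling these were 14.3 and 6.56 against 64.6 and 33.4 CPM. The 9 immune markers there had the same order, at 14.3 and 13.1 against 24.4 and 33.6 CPM, with 6 and 5 at 0 in mice 1 and 2. Their part in the *Ifitm1* difference was not tested. *Ifitm3* in the same cells was, after TMM scaling, at 23.3 and 47.2 against 26.5 and 33.6 CPM, with overlapping groups. The calls of *Slfn2* and *Ifitm1* were not examined under the alternative settings.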

How the data were processed

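Counts of UMIs per gene and barcode were those the authors deposited, made with Cell Ranger 6.0.0 per the submitters' processing notes, for 1 pooled library. The library held these 4 mice and cells with other tags. Barcodes with at least 6891 UMIs (an order-of-magnitude rule for 24000 expected cells), 200 genes and no more than 10% of UMIs from mitochondria were kept. Cells were assigned to mice from their tags (HTODemux, 8 tags), which left out 4575 cells with several tags, 2809 with none and 4540 with tags the labels do not name. Cells were clustered in Seurat 5.3.0 (SCTransform, 30 components, resolution 0.8) without the genes reported, and clusters were named from fixed markers, with naming thresholds set after the clusters were seen, so names may differ from the study's. Sums per mouse and class were tested with edgeR 4.0.16 (quasi-likelihood, TMM, filterByExpr, Benjamini-Hochberg threshold 0.05), which was tested on simulated data, where 2.30% (endothelial-like) to 12.7% (immune-like) of its calls were false, and 6.20% to 9.09% in SSB/ErPT-like, NPC-like and PT-like cells. DESeq2 1.42.0, no filter, each mouse left out, other tag calls, Scrublet (7.74% of cells marked) and free RNA subtraction were alternatives. SE is the log2 change divided by the square root of F. Members, lists and tests were chosen with earlier results of these data known. Any of the 39 genes could be named, and of the pathway lists only called genes, ligands and receptors, with 1 further gene of that rule not reported here. Nothing beyond the tags shows separate litters, so p-values measure the spread between these mice. The 6 bulk samples were not analysed here.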

Additional observations from a re-analysis of the deposited data

Results flagged for a closer look

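The change of *Ly6e* differed between SSB/ErPT-like and ureteric bud-like cells, by 1.54 on the log2 scale (SE 0.18, edgeR adjusted p = 3.3e-06), with both Trim28Δ/Δ mice above both controls in the former and overlapping groups in the latter. The difference was tested as an interaction with the mouse as block, for a pair of classes chosen after seeing the data.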

How the results depend on the processing

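The number of genes called, with the share of all genes called, was 0 in NPC-like cells (0 to 1 with a mouse left out, the 1 without mouse 3, 3.15%, or mouse 4, 7.03%) and 0 in PT-like cells (0 to 3 with a mouse left out, the 3 without mouse 4, 12.3%, with 2 under no filter, 3.09%, 1 with DESeq2, 0.459%, and 1 without Scrublet doublets, 0.616%). Over all 17 classes it was 3, with 20 under no filter (1.13% of all pairs called), 5 after free RNA subtraction (0.363%, *Bst2* in cluster 5 being lower) and 2 to 58 with a mouse left out. Without mouse 3 it was 12 (1.78%) and without mouse 4 it was 58 (8.87%), as calls over all genes rose too. For the difference between PT-like and stroma-like cells it was 0 (0 to 3 with a mouse left out, the 3 without mouse 4, 1.99%), and between PT-like and endothelial-like cells 0 (0 to 10, the 10 without mouse 4, 4.1%, and 2 with no filter, 0.854%). The 15 genes of endothelial-like cells at an unadjusted p below 0.05 became 23 with no filter (2.21% of all genes), 6 by tag share (2.22%), 9 without Scrublet doublets (2.25%), 7 after free RNA subtraction (1.84%) and 4 to 26 with a mouse left out (4 without mouse 2, 0.821%, and 26 without mouse 4, 10.5%). The direction turned for *Ly6e* in podocyte-like cells without Scrublet doublets (0.11), for *Ly6e* in ureteric bud-like cells without mouse 1 (-0.15 to 0.019 with a mouse left out) and for *Ifit3* in immune-like cells without mouse 3 (-0.091 to 2.17), and the cause was not tested. Other values of *Ly6e* in the 17 classes, and of *Isg15*, *Ifit1*, *Ifit3*, *Irf7*, *Rsad2* and *Rtp4* in endothelial-like and immune-like cells, kept their direction. Without mouse 3, the log2 change also turned for *Isg15* in stroma-like (-0.46) and mural-like (-0.25) cells and for *Adar* (-0.26), *B2m* (-0.022) and *Trim25* (0.34) in endothelial-like cells. With a mouse left out, the lone sample of its genotype is assumed to vary like the others. No paired analysis was possible because the 4 mice share no replicate numbers and the bulk samples that do were not analysed here. With 2 mice a genotype, 11.5% of simulated 2-fold changes were recovered in endothelial-like cells and 14.6% in immune-like cells. These changes were set in genes drawn from all genes tested, whatever their level.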
